A study of Bos taurus with 7 samples.

Results

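The genes described here are 10 keratins of the suprabasal, differentiating layers of stratified epithelia: KRT1, KRT2, KRT3, KRT4, KRT6A, KRT10, KRT13, KRT36, KRT76 and KRT78. They were chosen by name, as the array probes that carry one of these symbols, and 8 of the 10 were found among 15008 probes. KRT1 and KRT13 were not analysed here, since no probe in the files used here carries those names. The 8 are part of 48 keratins on the array. RNA of the rumen epithelium was measured in 7 Holstein calves, on 1 single-colour array per calf. The HAY group (calves 9, 10 and 13, n = 3) was given forage, and the CON group (calves 8, 11, 12 and 14, n = 4) was not. The calves were assigned to these groups 3 weeks after weaning, and the series asks how forage and calf starter affect ruminal pH and the transcripts of the rumen lining. All calves were Holstein, and the labels give no other treatment.

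Keratins build the intermediate filaments of epithelial cells, and every filament joins an acidic type I chain with a basic type II chain. Cells of the basal layer make KRT5 with KRT14, and as they move up they switch to other pairs, such as KRT1 with KRT10 in keratinising skin or KRT4 with KRT13 in soft mucosa. The rumen lining is a stratified squamous epithelium whose upper layers keratinise, and it is the surface through which short-chain fatty acids are absorbed.

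Of the 8 keratins, KRT10 and KRT36 are type I and their probes lie on chromosome 19. The other 6, KRT2, KRT3, KRT4, KRT6A, KRT76 and KRT78, are type II and their probes lie on chromosome 5. The probes of KRT4, KRT78 and KRT10 are printed because the KRT78 and KRT4 results and the spread of KRT10 rest on 1 probe each. They come from the deposited scanner files and are given 5′ to 3′, and capitals mark the longest run of bases that the probe shares with the probe of any other keratin on the array.
KRT78: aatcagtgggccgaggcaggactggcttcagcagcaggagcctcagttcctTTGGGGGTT
KRT4: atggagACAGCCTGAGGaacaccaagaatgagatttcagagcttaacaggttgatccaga
KRT10: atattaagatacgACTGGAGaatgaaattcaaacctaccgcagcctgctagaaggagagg
The shared run was 11 bases for KRT4 (with the KRT18 probe), 9 for KRT78 (with KRT9) and 7 for KRT10 (with KRT9), out of 60 bases. These runs compare probes with probes only, and whether transcripts of other keratins bind these probes was not checked. On UMD_3.1 the files place the KRT78 probe at chr5:27258435-27258494, the KRT4 probe at chr5:27296321-27296380 and the KRT10 probe at chr19:41665013-41665072, the last on the minus strand. The probes of KRT2 (chr5:27438752-27438811), KRT76 (chr5:27371117-27371186) and KRT36 (chr19:42325914-42325972, minus strand) hold the letters AATAAA, a polyadenylation signal, on the strand of the probe, as do 9.51% of all 15008 probes. KRT3 lies at chr5:27316816-27316875 and KRT6A at chr5:27563878-27563937. The interval of KRT76 is longer and that of KRT36 shorter than the 60 bases of the probe, and the reason was not checked. The KRT6A probe shares at most 7 bases in a row with the KRT6B probe and 5 with the KRT6C probe, 2 close relatives of KRT6A whose transcripts may still bind it.

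Signals below are processed intensities, and log2 values are relative to the 75th percentile of the same array, so that 0 equals that percentile. A probe well above background passed the scanner software's test for it, and probes that did so on at least 3 of the 7 arrays were tested. That left 7 of the 8 keratins, all but KRT2, among 12570 tested genes. All 15 genes of a stratified squamous epithelium list, KRT5 and KRT14 among them, were tested, and 11 were higher and 4 lower in HAY. Of all tested genes, 54.5% had higher values in HAY. KRT5 reached 100027 to 113297 intensity units in HAY and 91125 to 138502 in CON, and KRT14 reached 107144 to 173201 in HAY and 55543 to 129216 in CON. Of 12 markers of columnar or glandular epithelium 8 were on the array and 4 were tested, with a summed scaled signal of at most 0.0866 in HAY and 0.0945 in CON. All 7 arrays shared a slide, with HAY in its row 1 and CON in its row 2, and an effect of the row cannot be told apart from one of feeding. In bulk tissue, fewer cells of a type and less RNA per cell cannot be told apart.

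The differentiation keratins ran from spots not well above background to a saturated spot. KRT6A, a keratin of activated and wound-edge keratinocytes that oral mucosa also makes, was the brightest, between 7th and 56th of all probes by array. Its signal was 383956, 496036 and 628989 (HAY calves 9, 10 and 13), against 284725, 413887, 316403 and 536429 (CON calves 8, 11, 12 and 14). Only the spot of HAY calf 13 was saturated, so that value is a lower bound, and the groups overlapped. Saturation touched 1 of the 6 type II probes and neither of the 2 type I probes. Outside the 8, KRT6B was saturated on 7 of 7 arrays and KRT6C on 5 of 7 (3 HAY and 2 CON), so differences between calves could not be measured in full for those 2 probes. No other of the 48 keratin probes was saturated.

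At the other end, KRT2, a keratin of the uppermost living layers of skin, was well above background on 1 array only, that of HAY calf 13. Its signal was 13.2, 6.98 and 14.8 (HAY calves 9, 10 and 13), against 3.92, 6.12, 6.33 and 11.3 (CON calves 8, 11, 12 and 14). These values lie at the floor of the array, and no fold is given. KRT4 and KRT76 were also dim, at 5.60 to 65.1 and 6.18 to 22.7 intensity units over the 7 arrays. KRT3, KRT78, KRT10 and KRT36 lay between, all well above background on 7 of 7 arrays. A probe's signal depends on its own sequence as well as on its transcript, so these signals give no order of abundance among keratins.

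**Figure D1:**
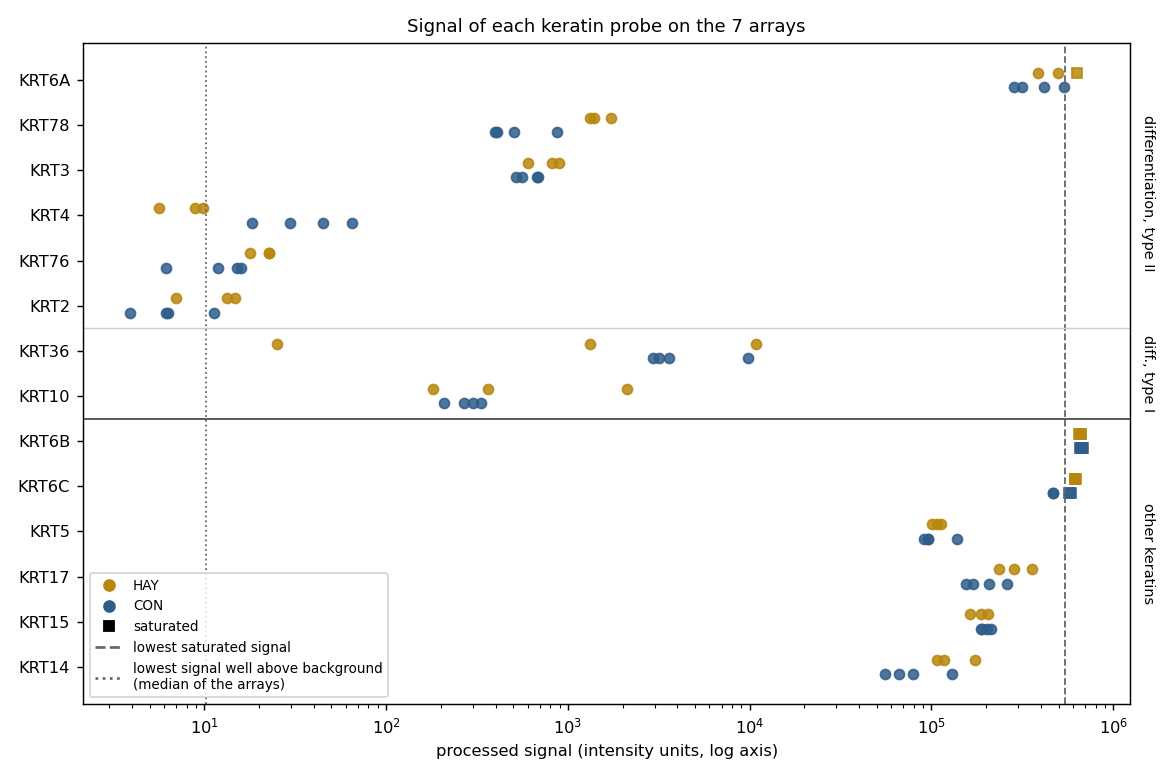
Processed signal of each keratin probe (horizontal log axis, intensity units) on the 3 HAY and 4 CON arrays, 1 point per calf, with squares for saturated spots. The 6 type II and the 2 type I differentiation keratins stand above 6 other keratins: KRT6A is saturated on 1 array and KRT6B on all 7, while KRT4, KRT76 and KRT2 lie near the lowest signals that are well above background.

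KRT78, a type II keratin of differentiated layers of stratified epithelia, was higher in HAY. Its signal was 1321, 1386 and 1734 (HAY calves 9, 10 and 13), against 406, 868, 395 and 502 (CON calves 8, 11, 12 and 14). The groups did not overlap: the 3 HAY calves lay close together, and the highest CON calf, calf 11, stayed below them. The mean log2 value was -0.43 ± 0.09 for HAY (SD, n = 3) against -1.80 ± 0.48 for CON (SD, n = 4). This is a 2.59-fold higher level in HAY (95% interval 1.71 to 3.92, log2 difference 1.37, SE 0.26). In limma, with Benjamini-Hochberg adjustment over all genes, the p was 0.000868, the 63rd smallest of 12570, and the adjusted p = 0.164 missed the threshold of 0.05. The unadjusted p stayed under 0.05 in all 17 processing alternatives, with log2 differences of 1.20 to 1.60 and adjusted p of 0.128 to 0.572.

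KRT4, the type II keratin of suprabasal cells in soft mucosa such as the oesophagus, had the opposite pattern. Its signal was 5.60, 8.87 and 9.78 (HAY calves 9, 10 and 13), against 65.1, 29.5, 18.3 and 44.9 (CON calves 8, 11, 12 and 14). The probe was well above background on no HAY array and on all 4 CON arrays, and the groups did not overlap. The measured mean was -7.98 ± 0.36 for HAY (SD, n = 3) against -5.66 ± 0.67 for CON (SD, n = 4), a log2 difference of -2.32 (SE 0.37). With the HAY values raised to the lowest signal well above background on each array, KRT4 was 3.63-fold lower in HAY. This compares group means without sampling error and is no strict minimum. On the array of HAY calf 9, KRT2 at 13.2 was not well above background, while the lowest signal that was stood at 12.1. The limma p was 0.000321, the 24th smallest of all, and the adjusted p = 0.163 missed the threshold. With normexp background correction (offset 50) the log2 difference was -0.68 (adjusted p = 0.185), smaller in size than the 1.86 log2 units of the 3.63-fold difference. KRT4 passed the filter on dim probes through its CON arrays alone, so a tested KRT4 had to differ between the groups.

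KRT76, a type II keratin of the gums and hard palate, stood just above background. Its signal was 22.7, 17.9 and 22.7 (HAY calves 9, 10 and 13), against 15.9, 15.1, 6.18 and 11.9 (CON calves 8, 11, 12 and 14). All 3 HAY arrays and 2 of the 4 CON arrays, those of calves 8 and 11, were well above background, and the groups did not overlap. The mean log2 value was -6.56 ± 0.18 for HAY (SD, n = 3) against -7.28 ± 0.50 for CON (SD, n = 4). The log2 difference of 0.72 (SE 0.27) had a limma p of 0.0311 and an adjusted p = 0.319, which missed the threshold. With normexp background correction the difference was -0.06 (adjusted p = 0.809), so its direction depends on how background is removed. The unadjusted p was also above 0.05 without HAY calf 9, HAY calf 13 or CON calf 14.

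No differentiation keratin passed the adjusted threshold of 0.05, which 0.00796% of all tested genes (1 gene, B4GALNT2) did. At an unadjusted p under 0.05 stood 3 of the 7, against 14.0% of all tested genes. KRT78 and KRT76 were higher in HAY, where the share of all genes is 6.79%, and KRT4 was lower, where it is 7.17%. The same 3 were those without overlap between groups, against 11.8% of all tested genes. Because KRT4 entered through the arrays where it is high, these counts over 7 genes are a description only. HAY values were higher for 5 of the 7 keratins and lower for 2, beside 54.5% higher over all tested genes. The median log2 difference of the 7 keratins was 0.25, beside 0.03 over all genes. CON calf 8 and HAY calf 13 had the highest and the lowest fibroblast and smooth muscle levels. With both left out the KRT78 difference was 1.20 (limma adjusted p = 0.572). In the HAY calves left, smooth muscle markers summed to 36.8 and 19.3. In the CON calves left, they summed to 53.0, 41.9 and 36.9. The part of these cells in the KRT78 difference was not tested.

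**Figure D2:**
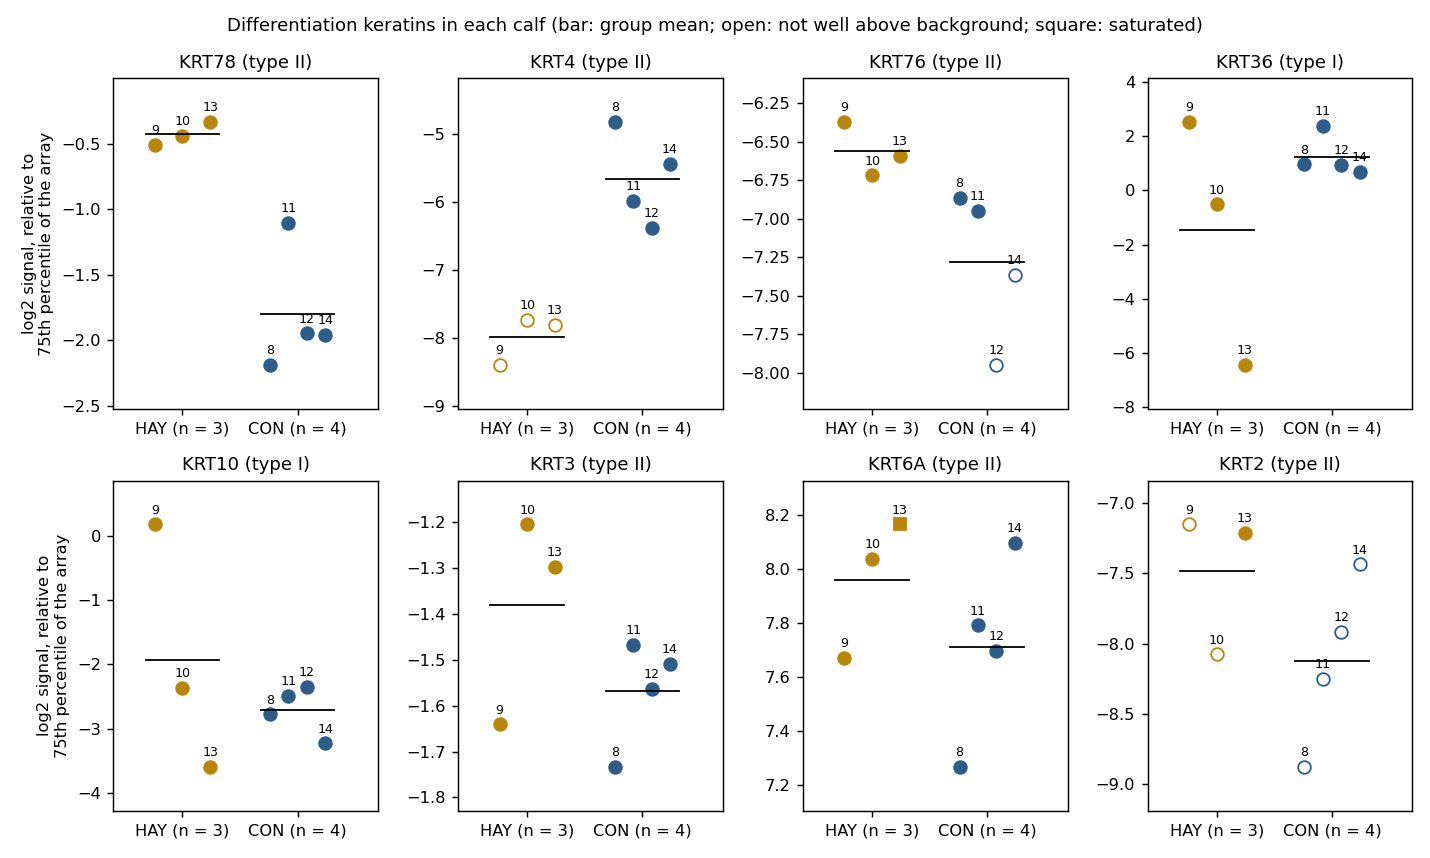
Log2 signal relative to the 75th percentile of the array (vertical axes, 1 scale per gene) in each HAY calf (left) and CON calf (right), labelled by calf number, with bars for group means, open points for spots not well above background and a square for a saturated spot. The groups do not overlap for KRT78, KRT4 and KRT76, while HAY calf 13 lies at -6.45 for KRT36 and HAY calf 9 at 0.17 for KRT10.

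The 2 type I keratins varied mostly between calves of the same group. KRT36, a type I keratin of hair and nail that is also made in the filiform papillae of the mouse tongue, had a signal of 10850, 1317 and 25.1 (HAY calves 9, 10 and 13), against 3614, 9752, 2955 and 3174 (CON calves 8, 11, 12 and 14). The HAY calves thus spanned 503-fold after scaling and lay both above and below every CON calf, which spanned 3.22-fold. HAY calf 13 was 61.0-fold below the next lowest calf, HAY calf 10, yet its spot was still well above background. Of 12561 genes measured on all arrays, 2 had the lowest calf set apart by a gap as large as that of KRT36, and in both that calf was HAY calf 13. The group means were -1.48 ± 4.56 for HAY (SD, n = 3) against 1.25 ± 0.77 for CON (SD, n = 4). The log2 difference of -2.73 (SE 1.84, 95% interval -7.01 to 1.55) missed the threshold (limma adjusted p = 0.534). Leaving out HAY calf 13 gave -0.25, and leaving out HAY calf 9 gave -4.73 (unadjusted p = 0.0176, adjusted p = 0.176).

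KRT35, a hair keratin whose gene neighbours KRT36, had log2 values of 3.58, 4.58 and 4.15 (HAY calves 9, 10 and 13), against 3.59, 4.18, 4.45 and 4.07 (CON calves 8, 11, 12 and 14), with HAY calf 13 inside the range of CON. HAY calf 13 also had the lowest summed level of smooth muscle and fibroblast markers, and whether this is related to its KRT36 value was not tested.

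KRT10, the type I partner of KRT1 in keratinising layers, was set apart in another calf. Its signal was 2122, 366 and 181 (HAY calves 9, 10 and 13), against 269, 333, 300 and 209 (CON calves 8, 11, 12 and 14). HAY calf 9 lay 5.74-fold above the next highest calf, CON calf 12, and the other 6 calves lay between -3.60 and -2.35 log2 units. A gap of this size above the next calf was seen in 27 of 12561 genes, and KRT10 was the only 1 of them in which HAY calf 9 was the calf set apart. The mean was -1.93 ± 1.92 for HAY (SD, n = 3) against -2.71 ± 0.39 for CON (SD, n = 4), with a log2 difference of 0.78 (SE 0.79, limma adjusted p = 0.698). Without HAY calf 9 the difference was -0.27, so the direction of KRT10 rests on that calf. Without HAY calf 13, the lowest, it was 1.61 (unadjusted p = 0.0459, adjusted p = 0.621).

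KRT36 and KRT10 both had their highest value in HAY calf 9 and their lowest in HAY calf 13, an order that no type II differentiation keratin had. KRT76 was highest in HAY calf 9 but lowest in CON calf 12, and KRT78 after scaling was highest in HAY calf 13 and lowest in CON calf 8. The SD within groups was 2.95 log2 units for KRT36 and 1.25 for KRT10, larger than in 99.9 and 98.2% of tested genes. For the 5 tested type II keratins it was 0.17 (KRT3) to 0.57 (KRT4), larger than in 21.6 to 85.4% of genes. Within CON alone the SD was 0.77 for KRT36 and 0.39 for KRT10. The type II keratins KRT4 (0.67), KRT76 (0.50) and KRT78 (0.48) had a larger CON SD than KRT10. The wide spread of KRT10 is thus that of the HAY calves. With 2 type I genes this contrast of types is a description of these probes.

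KRT3 and KRT6A varied least in groups and calves. KRT3, a type II keratin of the cornea in other mammals, had a signal of 604, 818 and 891 (HAY calves 9, 10 and 13), against 556, 675, 516 and 689 (CON calves 8, 11, 12 and 14). Its values spanned 1.44-fold over the 7 calves after scaling, and the groups overlapped through HAY calf 9. The log2 difference was 0.19 (SE 0.15, limma adjusted p = 0.623), and its 95% interval of -0.17 to 0.55 holds no change beyond 1.46-fold. KRT6A had a mean of 7.96 ± 0.26 for HAY (SD, n = 3) against 7.71 ± 0.34 for CON (SD, n = 4), a log2 difference of 0.25 (SE 0.22, limma adjusted p = 0.662, 95% interval -0.27 to 0.77). The KRT6A difference was 0.15 with the saturated spot left out and -0.01 without CON calf 8 and HAY calf 13. For KRT6A these were the lowest CON calf and the highest HAY calf, so leaving them out could only lower the difference. As the saturated value is a lower bound, the reported difference may be too small. After scaling, the lowest 2 calves for both genes were CON calf 8 and HAY calf 9.

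Among the other 29 tested keratins, 21 had higher and 8 lower values in HAY (median 0.14), beside 54.5% higher over all tested genes. None of the 29 passed the adjusted threshold. At an unadjusted p under 0.05 stood 2 of the 29, both type II members of the hair keratin family and both higher in HAY. This is a smaller share than the 14.0% of all tested genes in either direction. The share of all tested genes higher in HAY at that p was 6.79%. KRT84 had a log2 difference of 0.85 (SE 0.23, limma adjusted p = 0.248), with 3 HAY calves at -4.45, -4.26 and -3.72 and 4 CON calves at -5.18, -5.10, -5.10 and -4.57, without overlap, and 0.35 with normexp background correction. KRT81 had one of 0.86 (SE 0.29, limma adjusted p = 0.287), with overlap between HAY calf 9 and CON calf 14. In the plot of all keratins KRT78 has the largest positive and KRT36 the largest negative difference of the 36. KRT6B (-0.16) and KRT6C (0.11) are among them, saturated on 7 and 5 arrays. Their differences and directions could thus not be measured in full.

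**Figure D3:**
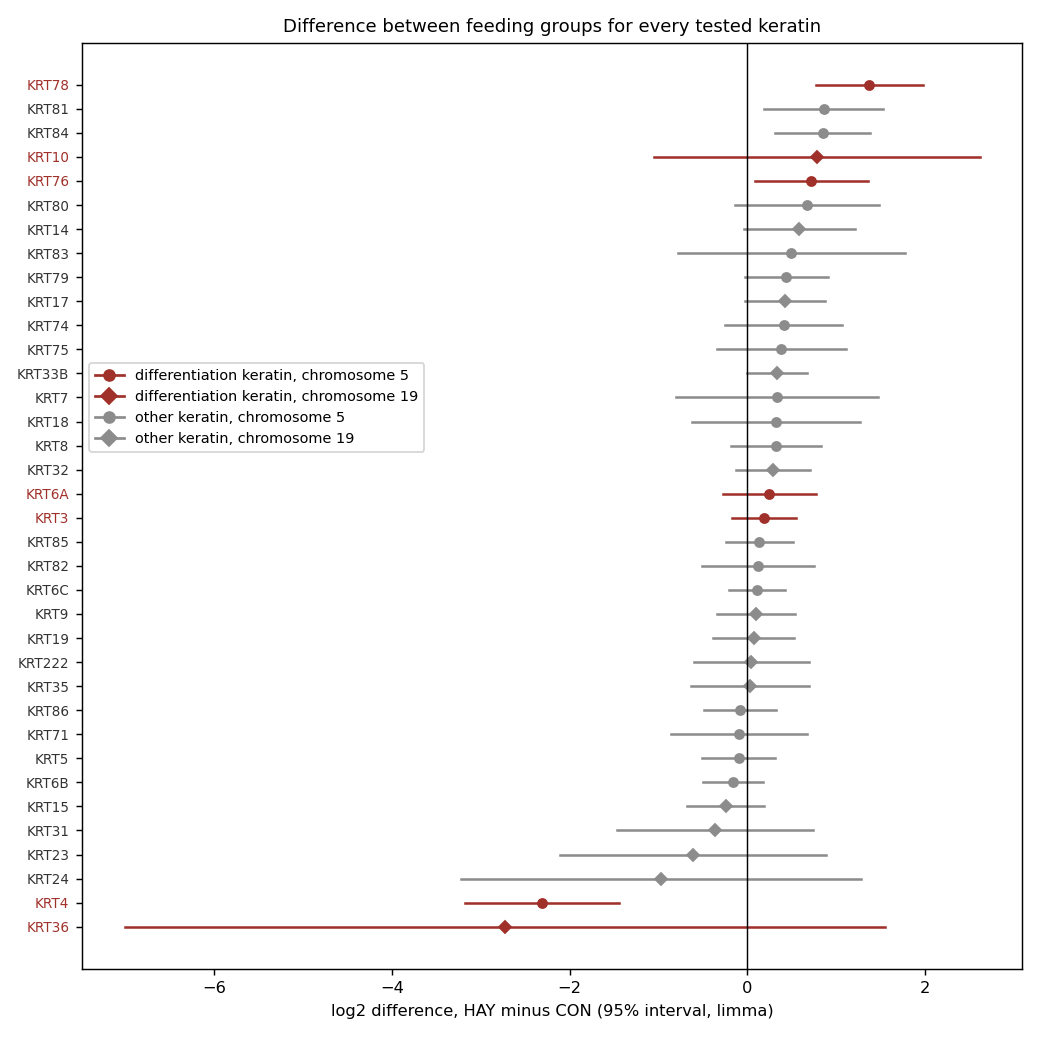
Log2 difference, HAY minus CON (horizontal axis), with its 95% interval from limma for the 36 tested keratins, sorted by size, with the 7 differentiation keratins in red and the probe's chromosome as the symbol. KRT78 lies at 1.37 with an interval clear of 0, while the interval of KRT36 runs from -7.01 to 1.55. KRT4 lies at -2.32, but its HAY values are not well above background. Raised to the lowest signal well above background, they give a 3.63-fold lower level in HAY. The differences of KRT6B and KRT6C are limited by saturation.

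Other genes of the upper layers went both ways. Of 30 tested genes of the cornified layer, 18 had higher and 12 lower values in HAY (median 0.14), 3 higher and 4 lower at an unadjusted p under 0.05. Over all tested genes 54.5% had higher values in HAY, and 6.79% were higher and 7.17% lower at that p. The 4 with the smallest p were KLK7, KRTDAP, SCEL and TCHHL1. KLK7, a protease that cuts the junctions of shedding corneocytes, was well above background on no HAY array and on all 4 CON arrays (limma adjusted p = 0.155). With its HAY values raised in the same way as for KRT4, KLK7 was 6.97-fold lower in HAY. Like KRT4, it passed the filter on dim probes through its CON arrays alone, so a tested KLK7 had to differ between the groups. With normexp background correction its log2 difference was -1.16, smaller in size than the 2.80 log2 units of the 6.97-fold difference. KRTDAP, a secreted protein of suprabasal keratinocytes, had a log2 difference of -2.02 (SE 0.49, adjusted p = 0.216), with HAY calves at -3.30, -2.41 and -2.80 and CON calves at -1.83, -0.92, -0.91 and 0.39. SCEL, a precursor of the cornified envelope, had a difference of -1.45 (adjusted p = 0.261), and TCHHL1, related to the hair protein trichohyalin, of 1.28 (adjusted p = 0.261). None of the 30 passed over all genes. The SCEL probe was well above background on 2 of 3 HAY and 4 of 4 CON arrays, and the TCHHL1 probe on 3 of 3 HAY and 3 of 4 CON arrays. With normexp background correction their differences were -0.59 (SCEL) and 0.28 (TCHHL1).

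Of 31 tested regulators of squamous differentiation 25 had higher and 6 lower values in HAY (median 0.20), beside 54.5% higher over all tested genes. At an unadjusted p under 0.05 stood 3, all higher, a smaller share than the 14.0% of all tested genes in either direction. The share of all tested genes higher in HAY at that p was 6.79%. GATA3, a transcription factor of skin and hair follicle, had a log2 difference of 0.69 (limma adjusted p = 0.326). FOXN1, a transcription factor of keratinocyte differentiation, had one of 0.48 (adjusted p = 0.348), and CASR, the calcium-sensing receptor, one of 0.81 (adjusted p = 0.350), with CASR well above background on 2 of 3 HAY and 1 of 4 CON arrays. With normexp background correction the differences were 0.40 (GATA3), 0.31 (FOXN1) and 0.02 (CASR). The unadjusted p stayed under 0.05 in 10 of 17 processing alternatives for GATA3, 9 of 17 for FOXN1 and 8 of the 16 that tested CASR. None passed the adjusted threshold.

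Many markers of other cells of the rumen wall had lower values in HAY. All 15 tested smooth muscle genes had lower values in HAY, and their summed scaled signal was 15.8 to 36.8 in HAY and 36.9 to 87.2 in CON. The 17 tested genes of fibroblasts and matrix were each lower in HAY, with sums of 21.4 to 87.3 in HAY and 60.1 to 256 in CON. Of 16 endothelial genes 14 were lower (sums of 3.48 to 10.3 in HAY and 7.55 to 17.0 in CON), and of 13 myeloid genes 12 were lower (23.3 to 77.0 in HAY and 82.2 to 136 in CON). Lymphocyte genes went both ways, 6 higher and 8 lower of 14, with a median log2 difference of -0.71. Of them, 1 was higher and 4 were lower at an unadjusted p under 0.05 in limma. Over all tested genes these shares were 6.79% and 7.17%. The lymphocyte sums were 13.6 to 19.9 in HAY and 9.44 to 15.02 in CON. At an unadjusted p under 0.05 stood 8 smooth muscle, 9 fibroblast, 3 endothelial and 11 myeloid genes, all lower in HAY, and none of these passed the adjusted threshold. ITGAM, S100A9 and CD4 were not well above background on any array. The part of these cells in the keratin differences was not tested.

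The genes whose values over the 7 calves were most like those of KRT4 were SEC61G (Pearson r = 0.979, n = 7 calves), a subunit of the protein channel of the endoplasmic reticulum, SPATA9 (r = 0.973) and CKAP4 (r = 0.972), a membrane protein of the endoplasmic reticulum. For KRT10 they were SLC45A1 (r = 0.975), a sugar transporter, ACOT13 (r = 0.951), an acyl-CoA thioesterase, and TTC37 (r = 0.950). These are the highest of 12561 genes over the same 7 arrays, and were picked for being so, and they are given as a description with no test. The HAY values of KRT4 were not well above background. HAY calf 9 was the highest calf for KRT10, SLC45A1, ACOT13 and TTC37.

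**Figure D4:**
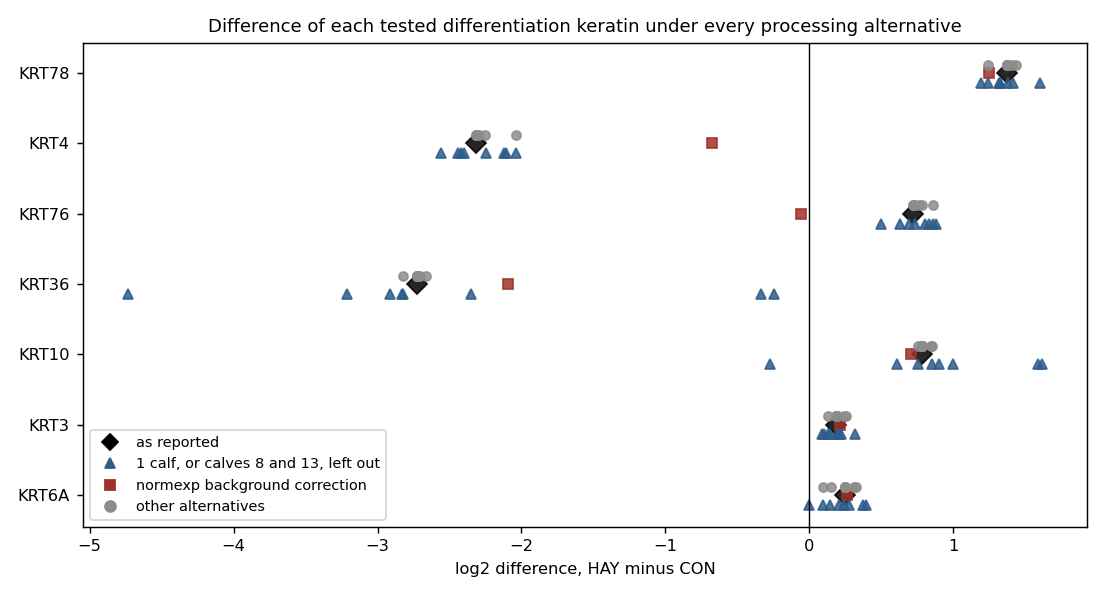
Log2 difference, HAY minus CON (horizontal axis), of each of the 7 tested differentiation keratins as reported (black diamonds) and under up to 17 processing alternatives. KRT78 stays between 1.20 and 1.60, KRT76 moves to -0.06 and KRT4 to -0.68 with normexp background correction, and KRT36 runs from -4.73 to -0.25 when calves are left out.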

How the data were processed

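Total RNA of 7 calves was labelled with Cy3 and hybridised to 1 array each, per the labels' protocols. The deposited scanner files hold spot intensity on a linear scale. Agilent Feature Extraction 9.5 had subtracted background and detrended each array, per the submitters' processing notes and the file headers. The log2 values of the deposited table for all samples differ from the scaled values used here by a constant per array of 0.00844 to 0.0201 (SD of the difference over probes at most 0.000352), so its scale and direction are the same and its centring is close to the array's 75th percentile. Its medians per column were -3.12, -3.14 and -3.20 (HAY calves 9, 10 and 13), against -3.09, -3.09, -3.08 and -3.11 (CON calves 8, 11, 12 and 14).

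Control spots and feature outliers were left out, saturated spots kept, and spots of a probe averaged as log2 before the 75th percentile was subtracted. Between 81.5 and 84.6% of spots were well above background and 10 to 20 were saturated per array. The number of arrays limits the precision. Symbols came from RefSeq accessions (11194 of 15008 probes, ARS-UCD2.0, names only) or the file, and the brightest probe of a gene was used. HAY and CON were compared with limma 3.58.1 in R 4.3.3, tested on simulated data. Exon and UTR annotation of UMD_3.1 was not used here.

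Each calf is a separate animal, and calf numbers do not pair calves between groups. The keratins and lists were chosen with earlier results of these data known. Named were all keratins of the list, up to 4 genes of smallest unadjusted p under 0.05 in each of 3 related lists, and the 3 genes most like KRT4 and KRT10. Planned comparisons of calf deviations between KRT4 and KRT13 and between KRT1 and KRT10 were not made, as 1 partner was not analysed here, and that of KRT2 with KRT10 was not made since KRT2 was near background.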

Additional observations from a re-analysis of the deposited data

Results flagged for a closer look

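In 17 genes (the 8 keratins and the 9 other named genes of related lists) the 4 CON calves were searched for a calf far from the others, and 2 genes had one. Chance gives about 1 in 20 such groups. For KRT36 the gap between CON calf 11, at 2.38 log2 units, and the next highest calf, CON calf 8 at 0.97, was 0.84 of the CON range, above the 95% critical value of Dixon's test for 4 samples. For KRT84 the gap between CON calf 14, at -4.57, and the next highest, CON calf 12 at -5.10, was 0.873 of the range. The 3 HAY calves are too few for this search, so the values of HAY calf 13 for KRT36 and of HAY calf 9 for KRT10 are not among these.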

How the results depend on the processing

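The differences were recomputed under 17 alternatives. No keratin passed the adjusted threshold in any of them. KRT78, KRT4, KRT36 and KRT3 kept their direction in all, KRT4 in the 16 that tested it, since it leaves the test when all 7 arrays must be well above background. Reversed were KRT76 with normexp (-0.058), KRT10 without HAY calf 9 (-0.27) and KRT6A without CON calf 8 and HAY calf 13 (-0.0058), and the cause was not tested. KRT10 was 1.61 without HAY calf 13. The count of the 7 keratins at an unadjusted p under 0.05 was 3, but 2 with normexp and 2 to 3 with 1 calf left out. It was 1 when all 7 arrays had to be well above background (5 keratins left, without KRT4 and KRT76). The keratins counted changed: KRT36 took the place of KRT76 without HAY calf 9, and KRT10 did so without HAY calf 13. The median difference of the keratins was 0.44 with no filter on dim probes, where KRT2 entered, and 0.13 to 0.37 with 1 calf left out. Past the adjusted threshold over all genes stood 1, but 4 with quantile normalization, 2 with the slide column as a block and 5 without calves 8 and 13. With 1 calf left out it was 1 to 21: leaving out HAY calf 9 gave 7, HAY calf 13 gave 2, CON calf 8 gave 4 and CON calf 14 gave 21. At an unadjusted p under 0.05 stood 749 genes without calves 8 and 13, and 984 to 2344 with 1 calf left out (988 without HAY calf 10 and 984 without HAY calf 13). No paired analysis was possible because the groups share no calf number. The slide column was fitted as a block instead, where CON calf 8 stands alone in its column and adds nothing, and gave 1.24 for KRT78. KRT2, KRT4 and KRT76 are limited by background and KRT6A by saturation.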

Other observations

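For KRT36 and KRT78, chosen after their values were seen, the genes most like them over the 7 calves were also looked up. For KRT36 they were ANGPT2 (Pearson r = 0.979), an angiopoietin, SPECC1 (r = 0.978) and CHST7 (r = 0.976), a sulfotransferase. ANGPT2 stood at -3.65, -4.68 and -6.43 log2 units (HAY calves 9, 10 and 13), against -3.61, -3.60, -3.90 and -4.25 (CON calves 8, 11, 12 and 14), so that HAY calf 13 was its lowest calf as well. For KRT78 they were TMEM40 (r = 0.990), NUDT4 (r = 0.990) and NAA60 (r = 0.986), and 207 of 12561 genes had an r above 0.9 with KRT78, against 123 for KRT36, 60 for KRT4 and 22 for KRT10. TMEM40, a membrane protein, stood at 4.15, 4.32 and 4.34 in HAY calves 9, 10 and 13, and at 3.38, 3.98, 3.59 and 3.58 in CON calves 8, 11, 12 and 14. These are correlations over 7 arrays that share a slide and a scaling, and no test was made on them. The other gene with a lowest calf as far apart as that of KRT36 was IFI47, an interferon-induced GTPase.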
